A study of Mus musculus with 6 samples.

Results

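Respiratory complex I was followed here through the genes of its nuclear-encoded subunits and of the assembly factors that carry the Nduf name. The members were the genes whose annotated symbol begins with Ndufa, Ndufb, Ndufc, Ndufs, Ndufv, Ndufab or Ndufaf followed by a digit, each read from its probe set of highest mean. There were 42 such genes, on 45 of the 23521 probe sets that carry 1 gene symbol, out of 22180 genes in all. Each mouse gave liver RNA for a single Affymetrix array covering whole transcripts. The series calls Balb/c mice WT and mice of the related substrain Balb/cBy KD, and there were 3 arrays of each. No label says which gene KD refers to, although Balb/cBy mice are known to carry a deletion in Acads, a gene of short-chain fatty acid oxidation. All mice were males of 20 weeks that had received a diet with 58% of its energy as fat for 12 weeks, starting at 8 weeks of age, so neither females nor mice on another diet were part of the comparison. Arrays of 1 group are described as biological replicates, and no transgene is named for either substrain.

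Complex I is the first and largest enzyme of the mitochondrial respiratory chain: it takes electrons from NADH, passes them to ubiquinone and pumps protons across the inner membrane. Its peripheral arm reaches into the matrix and holds the flavin and the iron-sulfur clusters, while its membrane arm holds the proton pumps. A set of core subunits does the catalysis, part of it encoded in the nucleus and part in mitochondrial DNA, and the accessory subunits surround the core and are needed for assembly and stability. Assembly factors build the complex from separate modules and are not part of the finished enzyme. In liver the enzyme takes up the NADH that fatty acid oxidation and the citric acid cycle produce.

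The values are on the log2 scale after RMA, so a difference of 1 is a doubling, and a positive difference means a higher value in Balb/cBy than in Balb/c. The 6 arrays were alike, with Pearson correlations across genes between 0.977 and 0.992 and medians between 7.98 and 8.03, and no 2 arrays held identical values. The tissue label was matched by hepatocyte markers: Alb, encoding albumin, read 14.20, 14.17 and 14.22 in Balb/c and 14.16, 14.17 and 14.18 in Balb/cBy. The mean of 10 hepatocyte markers lay between 13.24 and 13.38 on every array. As a stand-in for background, the level of 8.02 was used, the 95th percentile of the mean values of 1105 olfactory receptor genes. The means of 5 members, Ndufb11, Ndufs5, Ndufaf2, Ndufaf5 and Ndufa4l2, lay under it. In whole tissue, fewer cells of a type and less RNA per cell cannot be told apart.

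None of the 42 members differed between the substrains after adjustment. limma called 0 of them at an adjusted p of 0.05, where the smallest adjusted p of a member was 0.999, and over all 23521 probe sets tested the percentage called was 0. Without adjustment, 4 members (9.52%) had a p under 0.05, beside 3.74% of all genes. Of these, 3 were higher in Balb/cBy, Ndufs8, Ndufa2 and Ndufc1, beside 2.59% of all genes higher, and 1, Ndufa6, was lower, beside 1.15% lower. The 3 higher genes all lost this p with array weights, with the replicate block and without any 1 of Balb/c replicate 2, Balb/c replicate 3, Balb/cBy replicate 2 and Balb/cBy replicate 3. Ndufa6 lost it with array weights, with mean trend and robust moderation in limma (0.0625) and without Balb/c replicate 2 or 3. The gene also lost it without Balb/cBy replicate 1 (0.0858 in limma) and without the 2 arrays of lowest weight. Ndufa6 kept it with the block and without Balb/cBy replicate 2 or 3, at an unadjusted p of 0.0401, 0.0427 and 0.0184 in limma. The groups did not overlap in 4 members, or 9.52%, beside 7.83% of all genes. Balb/cBy was the higher group in Ndufa2 and Ndufc1, beside 4.32% of all genes, and the lower group in Ndufa6 and Ndufaf5, beside 3.51%. By permutation, 3 against 3 arrays cannot reach a p under 0.1, so p-values of single genes come from limma's model.

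As a list, the members leaned slightly towards higher values in Balb/cBy. There were 31 higher and 11 lower, 73.8% higher beside 49.1% of all genes, and the median difference was 0.065, a factor of 1.05, beside -0.0028 over all genes. Genes above the olfactory receptor level leaned the same way. With probe sets under that level left out, 29 of 37 members, or 78.4%, were higher beside 56.8% of all probe sets tested. The members' median difference was then 0.071 beside 0.021. The split moved with the scaling. After a renewed quantile normalization 23 of 42, or 54.8%, were higher beside 48.1% of all probe sets tested, with a median difference of 0.020 beside -0.0050. Centring the arrays on their brighter probe sets lowered the differences of all probe sets alike: 24 members, or 57.1%, were then higher beside 34.7% of all, with a median of 0.022 beside -0.046. Over the fits that left out 1 array the median of all probe sets stayed between -0.013 and 0.0082, and 46.6% to 52.5% of them were higher. Of the members, 54.8% to 83.3% were higher in these fits. The members' median was 0.14 without Balb/c replicate 1 (35 higher) and 0.14 without Balb/cBy replicate 1 (34 higher). Without Balb/c replicate 2 it was 0.033 (26 higher), without Balb/c replicate 3 0.014 (23 higher), without Balb/cBy replicate 2 0.025 (26 higher), and without Balb/cBy replicate 3 0.030 (26 higher).

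The catalytic core came first in the order of roles, with 6 nuclear genes measured. Of these, 4 were higher and 2 lower in Balb/cBy, with a median difference of 0.10, and 0 passed. Ndufs8, which carries 4Fe-4S clusters on the path to ubiquinone, showed the widest range of any member (probe set 17361032). Its log2 values were 11.51, 10.70 and 10.99 in Balb/c and 11.36, 11.67 and 11.62 in Balb/cBy. Balb/c replicate 1 stood inside the Balb/cBy values, and the other 2 Balb/c arrays lay below all 3 Balb/cBy arrays. The means were 11.07 ± 0.41 (SD, n = 3) and 11.55 ± 0.17 (SD, n = 3), a difference of 0.49 ± 0.20 (SE, 95% interval 0.03 to 0.94) or 1.40 times, with an unadjusted p of 0.0391 and an adjusted p of 0.999 in limma. When single arrays were left out the difference ran from 0.30, without Balb/c replicate 2, to 0.71, without Balb/c replicate 1.

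Ndufs7, which holds the last iron-sulfur cluster before ubiquinone, read 12.36, 11.95 and 12.07 in Balb/c and 12.46, 12.28 and 12.30 in Balb/cBy. Again Balb/c replicate 1 was the array that made the groups overlap, and the difference was 0.22 ± 0.12 (SE), from 0.13 without Balb/c replicate 2 to 0.33 without Balb/c replicate 1. Ndufs1, the largest peripheral subunit with several iron-sulfur clusters, went the other way, at 9.94, 9.65 and 9.85 in Balb/c against 9.30, 9.79 and 9.58 in Balb/cBy. Its lowest value was that of Balb/cBy replicate 1, the groups overlapped, and the difference was -0.26 ± 0.14 (SE), which narrowed to -0.13 without that array and widened to -0.37 without Balb/cBy replicate 2 (unadjusted p of 0.0303). Its unadjusted p was 0.111 in the reported fit, 0.0105 after renewed quantile normalization (difference -0.32), 0.0430 after centring on the brighter probe sets and 0.0483 with array weights. The subunits Ndufv1 and Ndufv2 form the NADH-binding tip of the peripheral arm. Ndufv2 read 12.03, 11.60 and 11.89 in Balb/c and 12.03, 12.12 and 11.93 in Balb/cBy, a difference of 0.18 ± 0.13 (SE), from 0.064 without Balb/c replicate 2 to 0.28 without Balb/c replicate 1. Ndufv1, which binds the flavin, read 11.42, 11.36 and 11.19 in Balb/c and 11.18, 11.43 and 11.39 in Balb/cBy. Its groups covered nearly the same range, with a difference of 0.013 ± 0.11 (SE, 95% interval -0.24 to 0.27). Ndufs3, a subunit near the quinone site, read 8.51, 8.21 and 8.35 in Balb/c and 8.22, 8.46 and 8.31 in Balb/cBy, a difference of -0.026 ± 0.11 (SE). The signs of Ndufv1 and Ndufs3 turned when single arrays were left out, so neither had a settled direction.

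Accessory subunits of the peripheral arm held both signs among their leading genes. Of 9 measured, 7 were higher and 2 lower in Balb/cBy (median difference 0.059), and 0 passed. This direction was not settled: 4 of 9 were higher with array weights (median -0.018), after renewed quantile normalization (-0.016) and without Balb/c replicate 3 (-0.031). Ndufa2, a small subunit with a thioredoxin-like fold, read 10.003, 9.53 and 9.74 in Balb/c and 10.06, 10.21 and 10.06 in Balb/cBy. All Balb/cBy arrays lay above all Balb/c arrays, the nearest pair being Balb/c replicate 1 and Balb/cBy replicate 1. The difference was 0.35 ± 0.13 (SE, 95% interval 0.05 to 0.65), or 1.27 times, with an unadjusted p of 0.0282. Ndufa6 read 10.81, 10.89 and 10.93 in Balb/c and 10.33, 10.63 and 10.73 in Balb/cBy. This subunit belongs to the LYR protein family and binds the mitochondrial acyl carrier protein. Every Balb/cBy array lay below every Balb/c array, with Balb/cBy replicate 1 farthest down, and the difference was -0.31 ± 0.12 (SE, 95% interval -0.59 to -0.04), or 0.805 times, with an unadjusted p of 0.0317. Leaving out Balb/cBy replicate 1 reduced it to -0.19. Ndufa5, part of the module that binds ubiquinone, read 9.12, 9.44 and 9.09 in Balb/c and 8.73, 8.99 and 9.15 in Balb/cBy, a difference of -0.26 ± 0.14 (SE) with overlapping groups. It ran from -0.36 without Balb/cBy replicate 3 to -0.15 when either Balb/cBy replicate 1 or Balb/c replicate 2 was left out. The remaining 6 lay close together: 0.13 for Ndufa12, 0.078 for Ndufab1 (the acyl carrier protein itself, present in both arms), 0.071 for Ndufa9, 0.059 for Ndufs4, 0.033 for Ndufa7 and 0.010 for Ndufv3. Ndufa12 has a second, dimmer probe set, which differed by 0.29 ± 0.16 (SE).

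**Figure D1:**
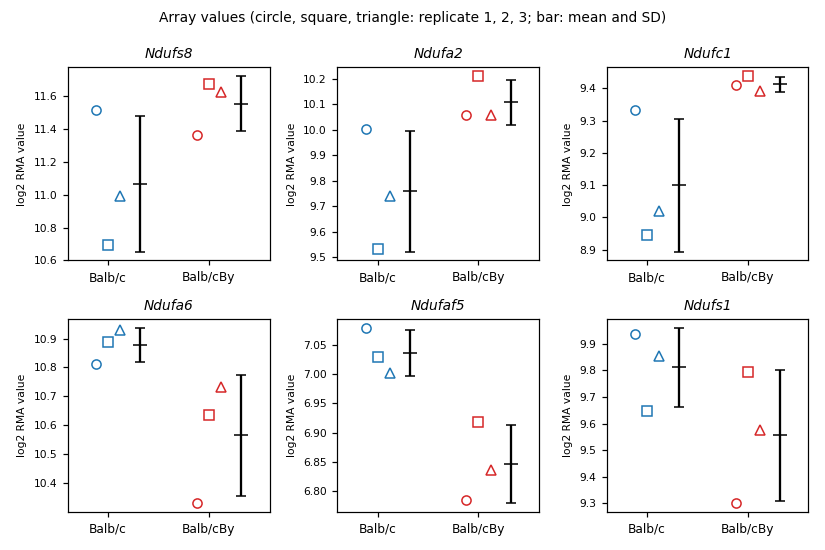
Log2 RMA values (vertical axes, a separate scale for each gene) of 6 complex I genes on the 3 Balb/c arrays (blue) and the 3 Balb/cBy arrays (red). Symbols stand for replicates and bars for the mean and SD. The groups do not overlap for Ndufa2, Ndufc1, Ndufa6 and Ndufaf5, while Ndufs8 and Ndufs1 overlap.

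Among the accessory subunits of the membrane arm, 14 of 17 were higher and 3 lower in Balb/cBy, with a median difference of 0.13, and 0 passed. After renewed quantile normalization 11 of the 17 were higher, with a median of 0.085. Ndufc1, a small subunit with a single membrane helix, read 9.33, 8.95 and 9.02 in Balb/c and 9.41, 9.44 and 9.39 in Balb/cBy. The Balb/cBy arrays lay within 0.05 of each other and above all Balb/c arrays, the highest of which was again replicate 1. The difference was 0.31 ± 0.12 (SE, 95% interval 0.04 to 0.58), or 1.24 times, with an unadjusted p of 0.0281. Ndufb11 read 8.07, 7.52 and 7.55 in Balb/c and 7.81, 8.22 and 7.91 in Balb/cBy, a difference of 0.27 ± 0.17 (SE) from a mean under the olfactory receptor level. Ndufb9, another LYR protein, read 12.22, 11.59 and 11.83 in Balb/c and 11.98, 12.18 and 12.22 in Balb/cBy, a difference of 0.25 ± 0.16 (SE). In both genes Balb/c replicate 1 reached the Balb/cBy values and the other 2 Balb/c arrays did not. Without that array the differences were 0.44 for Ndufb11 and 0.42 for Ndufb9, and the lowest with 1 array left out were 0.15 for Ndufb11 (without Balb/cBy replicate 2) and 0.10 for Ndufb9 (without Balb/c replicate 2).

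Ndufb3 had the widest range of the membrane arm genes, at 9.02, 8.65 and 9.37 in Balb/c and 8.99, 9.45 and 9.03 in Balb/cBy. Its difference was 0.14 ± 0.20 (SE). Ndufa8, a subunit of the intermembrane space, has probe sets that gave like differences, 0.18 ± 0.14 (SE) for the brighter and 0.17 ± 0.13 (SE) for the dimmer. The probe sets of Ndufa11 differed in sign: -0.069 ± 0.20 (SE) for the brighter, which counts here, and 0.14 ± 0.16 (SE) for the dimmer. The differences of 0.17 for Ndufb8, 0.15 for Ndufa1 and Ndufa3, 0.13 for Ndufb6 and 0.12 for Ndufa10 came next, followed by 0.065 for Ndufb5, 0.032 for Ndufb10, 0.017 for Ndufa13 (also known as GRIM-19) and 0.015 for Ndufb7. The other negative differences were those of Ndufs5 (-0.051) and Ndufc2 (-0.013).

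The 8 assembly factors with Nduf names were split evenly, 4 higher and 4 lower in Balb/cBy, with a median difference of 0.0064 and 0 passing; the median turned to -0.012 after renewed quantile normalization and to -0.036 after centring on the brighter probe sets. Ndufaf5, which hydroxylates an arginine of Ndufs7 during assembly, read 7.08, 7.03 and 7.002 in Balb/c and 6.78, 6.92 and 6.84 in Balb/cBy. The groups did not overlap, and the difference was -0.19 ± 0.09 (SE, unadjusted p of 0.0616), but the level was under that of olfactory receptor genes in both groups. Ndufaf8, the partner of Ndufaf5, read 10.01, 9.43 and 9.21 in Balb/c and 9.32, 9.67 and 9.84 in Balb/cBy. Its spread within each group was several times its difference of 0.066 ± 0.22 (SE), and the sign turned under 3 of the other settings tried. Ndufaf3, which with Ndufaf4 serves the module that binds ubiquinone, differed by 0.14 ± 0.19 (SE), and Ndufaf4 by 0.051 ± 0.12 (SE). Ndufaf6 differed by 0.085, Ndufaf1, a member of the complex that builds the membrane arm, by -0.065, Ndufaf2, a paralog of Ndufa12, by -0.040, and Ndufaf7, a methyltransferase, by -0.038. Ndufa4 carries the name of the family although its protein is now assigned to complex IV. It read 11.24, 11.002 and 11.24 in Balb/c and 11.17, 11.29 and 11.28 in Balb/cBy (difference 0.084 ± 0.10 SE). Its paralog Ndufa4l2 differed by 0.040 ± 0.09 (SE) under the olfactory receptor level. The 2 genes of this family count among the 42 members, and both were higher in Balb/cBy.

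**Figure D2:**
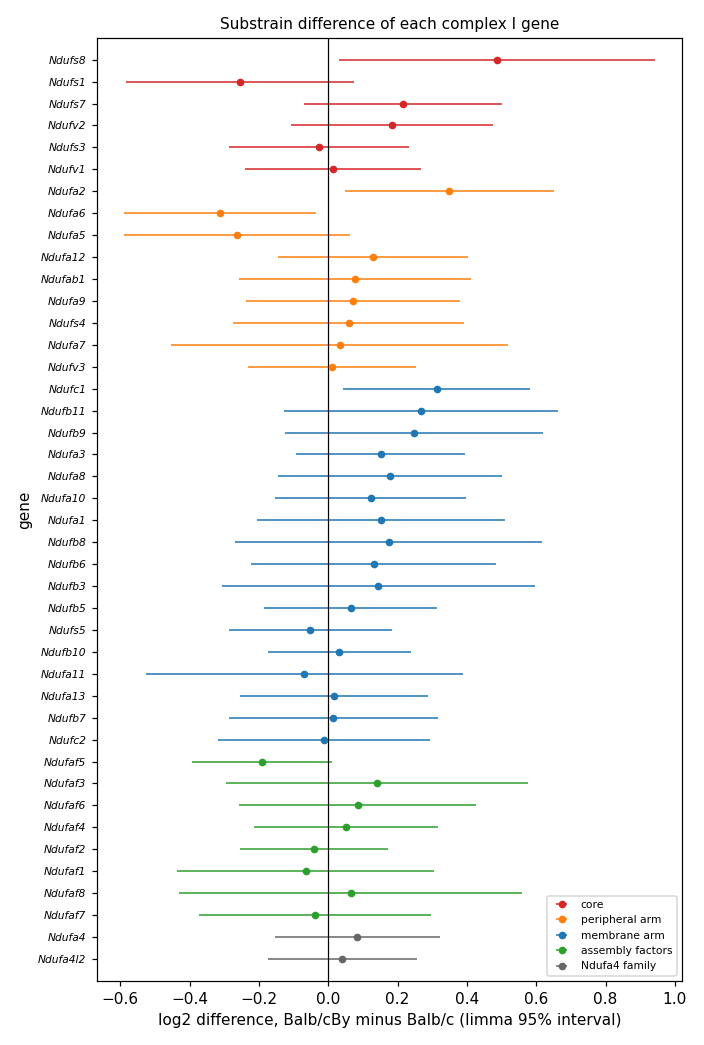
Log2 difference, Balb/cBy minus Balb/c (horizontal axis), with limma's 95% interval for each of the 42 members, the Ndufa4 family included, coloured by role. Points lie between -0.31 (Ndufa6) and 0.49 (Ndufs8), and 25 of the 42 intervals lie wholly within 0.5 of 0.

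The intervals set what these arrays could show for single members. The SE of a member ran from 0.09 to 0.22 with a median of 0.13, and the median half-width of the 95% intervals was 0.30. In 33 of the 42 members the difference was smaller than 0.2 in size. The intervals of 25 members lay wholly within 0.5 of 0, and those of the other 17 members reached beyond it.

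Within a substrain the members spread over a median range of 0.38 in Balb/c and 0.25 in Balb/cBy, and the order of the arrays was largely shared. Balb/c replicate 1 was the highest Balb/c array in 34 of 42 members (81.0%), beside 28.8% of all genes and 34.9% of genes above the olfactory receptor level. Balb/cBy replicate 1 was the lowest Balb/cBy array in 32 of 42 (76.2%), beside 35.2% of all genes and 52.0% of those above that level. Every one of the 6 core subunits was highest within Balb/c on replicate 1, as were 15 of 17 membrane arm genes, 7 of 9 peripheral arm accessory genes and 6 of 8 assembly factors, but neither gene of the Ndufa4 family. After each gene was centred on its mean over the 6 arrays, the median over the 42 members was 0.12, -0.14 and -0.14 on Balb/c replicates 1, 2 and 3 and -0.075, 0.12 and 0.063 on Balb/cBy replicates 1, 2 and 3. Over all genes these medians stayed between -0.016 and 0.014.

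**Figure D3:**
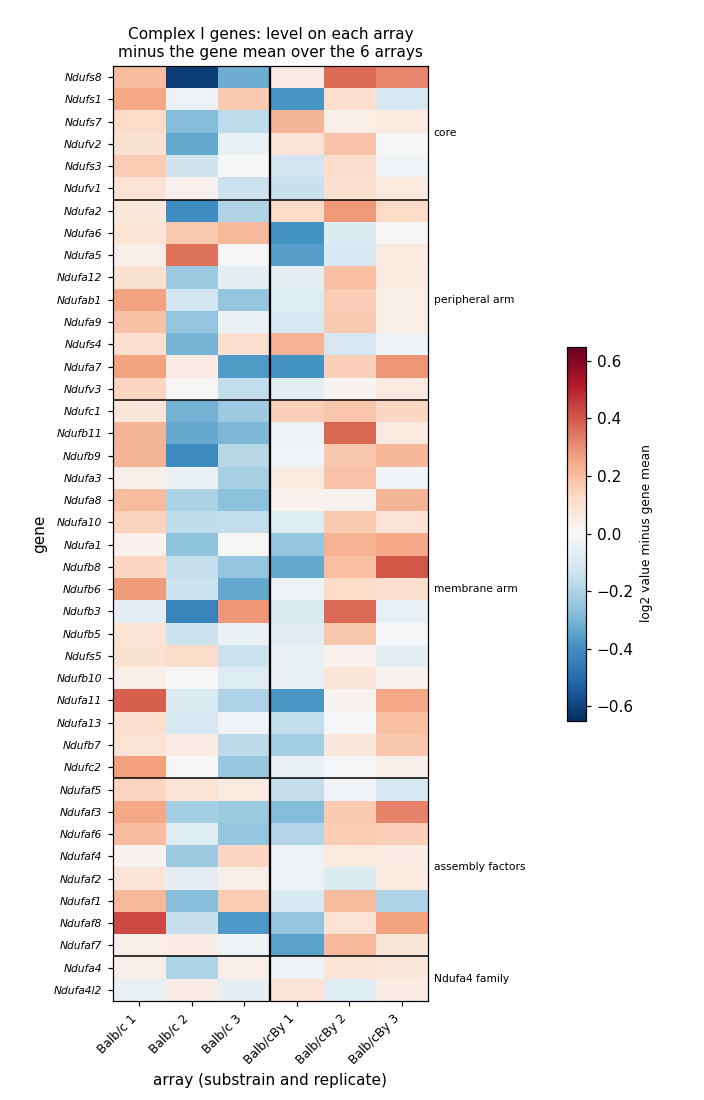
Log2 value of each member, the Ndufa4 family included, minus its mean over the 6 arrays, by array (columns) and gene (rows, grouped by role). Red is above and blue below the mean. Balb/c replicate 1 is the highest Balb/c array in 34 of the 42 rows and Balb/cBy replicate 1 the lowest Balb/cBy array in 32.

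The other respiratory complexes were read in the same way, since they work in 1 chain with complex I. Complex II, which is also an enzyme of the citric acid cycle, had centred medians of 0.17, -0.13 and -0.16 in Balb/c and -0.18, 0.12 and 0.056 in Balb/cBy (8 genes). Complex III read 0.15, -0.012 and -0.23, then -0.12, 0.055 and 0.12 (8 genes), and complex IV 0.076, -0.039 and -0.12, then -0.12, 0.14 and 0.13 (10 genes). ATP synthase, complex V, read 0.084, -0.15 and -0.082, then -0.024, 0.085 and 0.069 (16 genes). In all of these lists replicate 1 was the highest Balb/c array and the lowest Balb/cBy array, as in complex I. The same positions of replicate 1 were seen outside the respiratory chain. Hepatocyte markers read 0.023, -0.040 and 0.016, then -0.054, 0.023 and 0.031 (10 genes), and the 11240 genes above the olfactory receptor level read 0.011, -0.026 and -0.033, then -0.035, 0.061 and 0.013, so the order was not one of respiratory genes alone. The median differences between substrains were -0.00081 for complex II, 0.025 for complex III, 0.094 for complex IV and 0.093 for complex V, with 0 genes passing in each; whether they differ from that of complex I was not tested.

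**Figure D4:**
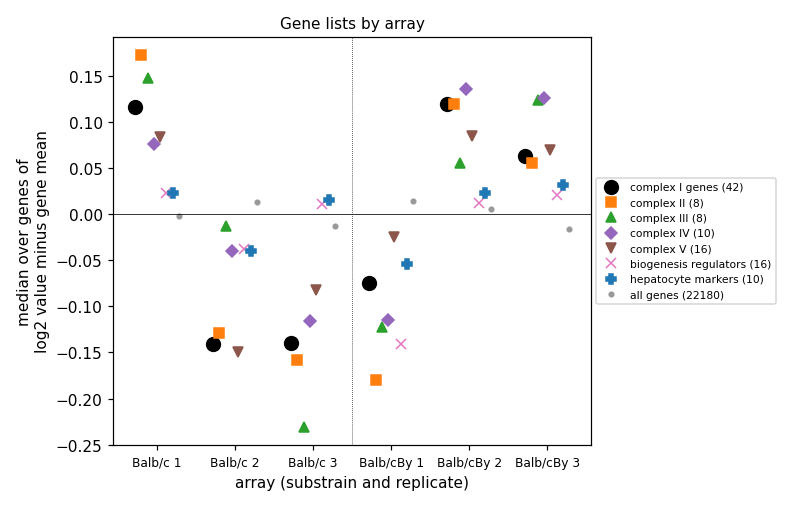
Median over the genes of a list of the log2 value minus the gene mean (vertical axis) on each array (horizontal axis). The 42 members, labelled complex I genes, lie at 0.12 on Balb/c replicate 1 and at -0.14 on the other 2 Balb/c arrays. Complexes II to V share the position of replicate 1 in both groups, while the median of all genes stays near 0.

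Other measures differed between the arrays as well, and their part in the pattern was not tested. limma gave Balb/cBy replicate 1 the lowest array weight, 0.471, and Balb/cBy replicate 3 the highest, 2.47, with 2.04 for Balb/c replicate 1. Among the marker lists of other cell types, the 3 measured adipocyte markers of 4 listed had medians of 0.048, -0.30 and -0.13 in Balb/c and -0.33, 0.37 and 0.31 in Balb/cBy. Their mean level was 8.11 to 8.37 in Balb/c and 7.95 to 8.72 in Balb/cBy, and Adipoq, the defining marker, lay under 8.02. Stellate cell markers, 8 of 8 measured, had medians of 0.051, -0.072 and -0.22 in Balb/c and 0.0025, 0.067 and 0.25 in Balb/cBy, with a mean level of 9.23 to 9.53 and of 9.45 to 9.72. Of them 7 were higher in Balb/cBy (median difference 0.18), with 0 passing. The matrix proteoglycan genes Lum and Dcn had an unadjusted p of 0.0017 and 0.0103 (adjusted 0.586 and 0.999 in limma). The 7 endothelial markers read 0.064, 0.014 and -0.16, then -0.15, -0.028 and 0.19, with a mean level of 9.80 to 9.92 and of 9.76 to 10.11, and 5 were higher (median difference 0.062). In adipocyte, stellate and endothelial markers replicate 1 was thus the highest Balb/c and the lowest Balb/cBy array, as in complex I. T and NK cell markers (6 genes, 0 higher in Balb/cBy, 3 under 8.02) read 0.091, 0.10 and -0.018, then -0.049, -0.080 and -0.060. B and plasma cell markers (4 genes, 1 higher, 3 under 8.02) read 0.044, 0.18 and 0.026, then -0.054, -0.18 and -0.10. In both, Balb/c replicate 2 and Balb/cBy replicate 1 were highest in their groups. The 1 higher B and plasma cell marker, Jchain, went against the other 3. It read 7.09, 6.91 and 7.10 in Balb/c and 7.44, 8.31 and 8.70 in Balb/cBy. Its difference was 1.12 (unadjusted p of 0.0036, adjusted 0.974 in limma), from a mean under 8.02, so the list median does not describe it. In cholangiocyte markers and the 1 erythroid marker, Balb/cBy replicate 2 was lowest. Neutrophil markers were higher in Balb/cBy in 4 of 5 (median difference 0.14), with a mean level of 7.32 to 7.48 in Balb/c and of 7.52 to 7.77 in Balb/cBy and 3 of them under 8.02. The neutrophil medians were -0.057, -0.011 and -0.20, then 0.018, 0.14 and 0.24, with Balb/c replicate 2 highest in Balb/c. The markers of Kupffer cells and macrophages, 8 of 8 measured, had another order, with 0.12, 0.34 and -0.48 in Balb/c and -0.23, 0.089 and 0.22 in Balb/cBy. Their mean level was 9.35 to 10.17 in Balb/c and 9.60 to 10.06 in Balb/cBy.

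Complex I needs further assembly factors whose names lie outside the Nduf family, and 10 of 11 listed had a probe set. Of these, 8 were higher and 2 lower in Balb/cBy (median difference 0.039), and 0 passed. Dmac1, a factor of the distal membrane arm, read 10.13, 10.08 and 9.88 in Balb/c and 10.07, 10.36 and 10.21 in Balb/cBy, a difference of 0.19 ± 0.12 (SE). Acad9, a relative of the fatty acid dehydrogenases that serves complex I assembly, read 9.31, 9.01 and 8.97 in Balb/c and 8.74, 9.17 and 9.03 in Balb/cBy (difference -0.12 ± 0.14 SE). It was named for this kinship after its values were seen. Its order of arrays was that of the subunits, with replicate 1 highest in Balb/c and lowest in Balb/cBy.

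Of the regulators of mitochondrial biogenesis, 6 of 16 (37.5%) were higher and 10 lower in Balb/cBy, beside 49.1% of all genes higher. Their median difference was -0.0071, beside -0.0028 over all genes, and 0 passed; no difference from the complex I genes was tested. Tfam, the factor that packages and transcribes mitochondrial DNA, read 8.34, 8.37 and 8.47 in Balb/c and 7.91, 8.07 and 8.17 in Balb/cBy. All Balb/cBy arrays lay below all Balb/c arrays, and the difference was -0.34 ± 0.10 (SE) with an unadjusted p of 0.0088 and an adjusted p of 0.999 in limma. Gabpa, the DNA-binding part of the ETS factor GABP that acts on many nuclear genes of respiration, read 8.84, 8.81 and 9.12 in Balb/c and 8.44, 8.48 and 8.67 in Balb/cBy. Its groups did not overlap either, with a difference of -0.39 ± 0.12 (SE), an unadjusted p of 0.0105 and an adjusted p of 0.999. These were the 2 of 16 regulators with an unadjusted p under 0.05 in limma, both lower, beside 1.15% of all genes lower. The groups did not overlap in 3 regulators, all lower, beside 3.51% of all genes. The third was Esrrg (-0.17), named after its values were seen. Results of these genes under the other settings are not given. Nrf1 differed by 0.021, Yy1 by -0.040, Esrra by -0.011 and Ppargc1a by -0.0012; they were named after their values were seen, because their motifs or roles bear on the promoters.

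The members' promoters were searched for motifs of these factors. Whether any motif bears on the shared order of arrays was not tested. RefSeq promoters of GRCm38.p6, from 250 bases before to 50 bases after the start, matched 37 of the 42 members; Ndufs1, Ndufa2, Ndufb9, Ndufaf6 and Ndufa4l2 were not matched. Both strands were read. The YY1 motif AAGATGGC occurred in 7 of 37 members (18.9%) and in 3.19% of all 27025 genes in the table. The NRF1 core motif GCATGCGC occurred in 5 (13.5%) and 3.05%; no motif contains another, and overlapping matches of 1 motif count once per gene. The ETS motif CCGGAAG occurred in 6 (16.2%) and 9.93%, the SP1 motif GGGCGG in 20 (54.1%) and 38.2%, and the estrogen-related receptor motif TCAAGGTCA in 0 and 0.466%. The median GC content was 59.3% in the members' promoters and 52.7% in all, and no correction was made for it. A match is a stretch of letters in this window, not a binding site.

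All 7 YY1 matches lay on the strand of the gene and within the 50 bases after the start. They are shown in windows of 30 bases on the gene's strand, with the motif in capitals, because they belong to subunits of both arms and to 1 assembly factor.
Ndufs7 (GRCm38.p6 chr10:80249462-80249491, + strand): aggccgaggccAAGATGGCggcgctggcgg
Ndufs4 (chr13:114388045-114388074, - strand): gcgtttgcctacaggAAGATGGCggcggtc
Ndufa9 (chr6:126849097-126849126, - strand): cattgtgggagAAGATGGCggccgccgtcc
Ndufa3 (chr7:3617384-3617413, + strand): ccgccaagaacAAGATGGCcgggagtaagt
Ndufb8 (chr19:44555393-44555422, - strand): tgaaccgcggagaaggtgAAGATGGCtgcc
Ndufc1 (chr3:51408915-51408944, - strand): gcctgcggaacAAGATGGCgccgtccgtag
Ndufaf8 (chr11:120098933-120098962, + strand): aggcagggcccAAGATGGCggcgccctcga
Their differences between substrains were 0.22 for Ndufs7, 0.059 for Ndufs4, 0.071 for Ndufa9, 0.15 for Ndufa3, 0.17 for Ndufb8, 0.31 for Ndufc1 and 0.066 for Ndufaf8.

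The 5 members with the NRF1 core were accessory subunits of both arms and a pair of assembly factors. A window of 30 bases around a match on the gene's strand is given for 4 of them, the motif in capitals.
Ndufa8 (GRCm38.p6 chr2:36049328-36049357, - strand): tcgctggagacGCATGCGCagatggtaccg
Ndufa11 (chr17:56717693-56717722, + strand): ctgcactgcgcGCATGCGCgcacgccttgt
Ndufaf4 (chr4:24897961-24897990, + strand): cagatgtctgcGCATGCGCctgtgcggaag
Ndufaf5 (chr2:140170653-140170682, + strand): gtcccgttggcGCATGCGCctaatagaaac
Their differences were 0.18, -0.069, 0.051 and -0.19 in the same order, and the fifth, Ndufa6, is shown next.

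The promoters of the members with the highest and the lowest difference, Ndufs8 and Ndufa6, are given over the 250 bases before the start, with any of the motifs searched in capitals.
Ndufs8 (GRCm38.p6 chr19:3912775-3913024, - strand): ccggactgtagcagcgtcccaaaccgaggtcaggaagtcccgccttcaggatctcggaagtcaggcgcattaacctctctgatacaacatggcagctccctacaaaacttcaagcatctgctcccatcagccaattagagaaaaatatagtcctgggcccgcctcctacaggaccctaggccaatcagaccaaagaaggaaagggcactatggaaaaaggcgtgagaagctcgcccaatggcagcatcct
Ndufa6 (GRCm38.p6 chr15:82354292-82354541, - strand): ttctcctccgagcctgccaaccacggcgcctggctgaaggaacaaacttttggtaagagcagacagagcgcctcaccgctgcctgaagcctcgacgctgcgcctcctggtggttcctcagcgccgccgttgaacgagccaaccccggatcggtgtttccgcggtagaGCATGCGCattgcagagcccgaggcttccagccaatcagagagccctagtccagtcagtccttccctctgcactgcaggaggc
Ndufa6 holds the NRF1 core in this stretch and Ndufs8 holds none of the motifs there. Ndufa6 is also among the 20 members with the SP1 motif, but that match lies outside this stretch. Ndufs8 has an ETS match after the start, read here on the gene's strand as the reverse complement, in capitals.
Ndufs8 (GRCm38.p6 chr19:3912741-3912770, - strand): ttaggctccgcCTTCCGGttgaaccgcatc

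Several complex I genes have no value here. Ndufs6, Ndufb2 and Ndufb4 lie on probe sets shared with other symbols and were not named, and Ndufb1 and the 7 subunits of mitochondrial DNA were not analysed. With probe sets of several symbols added, 45 genes gave 32 higher and 13 lower in Balb/cBy with a median of 0.065.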

How the data were processed

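Liver RNA of 6 mice was measured on 6 Affymetrix arrays. The deposited values are log2 values, 1 per probe set and array, made with RMA (background correction, quantile normalization, summary of probes) per the submitters' processing notes; the software and the build are not given in the sources used here. They ran from 3.31 to 14.84 over 41345 probe sets. Symbols came from the platform annotation; the 23521 probe sets with 1 symbol were tested with limma 3.58.1 in R 4.3.3 (lmFit, eBayes, group as the single term, two-sided, Benjamini-Hochberg over all of them). Counts of genes use the probe set of highest mean. The number of arrays, 3 per group, limits the precision of the differences. RMA draws low values together, which makes differences of dim genes look smaller.

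The members, role lists, markers, motifs and alternatives were chosen with earlier results of these data known. Array values are given for the 10 members of smallest p, the core subunits and the widest-ranging member of each role list, and each comparison list may name its 2 genes of smallest p; genes named otherwise are marked. Alternatives were other moderation, array weights, a replicate block, renewed quantile normalization, centrings, other choices of probe sets, and arrays left out. The fit was tested on simulated data. Replicate numbers were not treated as pairs in the reported fit. Deviations from the group mean correlated at -0.32, -0.20 and -0.23 for same-numbered arrays and at 0.015 to 0.22 for the others. Such deviations sum to 0 within each group of 3 arrays. These values therefore do not settle whether arrays were handled in numbered pairs.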

Additional observations from a re-analysis of the deposited data

How the results depend on the processing

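The number of members called by limma at an adjusted p of 0.05 was 0 in all 17 settings planned or added after the data were seen that were run beside the reported one, leaving out each array included. Over all probe sets, 31 were called with array weights, 16 without the 2 arrays of lowest weight, 4 when Balb/cBy replicate 1 was left out and 2 when Balb/c replicate 3 was. In the reported fit 4 members had an unadjusted p under 0.05, beside 3.82% of all probe sets. With array weights there were 2, Ndufaf5 and Ndufs1, both lower, beside 7.83%, and all of the 4 were lost. With the replicate block there was 1, Ndufa6, beside 2.39%, and no other count of members moved. Without the 2 arrays of lowest weight this count was 1, beside 9.87%, and the members without overlap numbered 12 rather than 4. Leaving out 1 array gave 0 members without Balb/c replicate 2 (beside 2.93%) or Balb/c replicate 3 (4.86%) and 9, of them 8 higher, for Balb/c replicate 1 (3.996%). The count was 4 without Balb/cBy replicate 1 (8.21%), 2, both lower, without Balb/cBy replicate 2 (2.05%) and 1, lower, without Balb/cBy replicate 3 (3.29%). The same fits gave 5 to 14 members without overlap, the highest numbers being 14 without Balb/c replicate 1 and 9 without Balb/cBy replicate 1. Groups of 2 arrays overlap less easily than groups of 3. The share of all genes without overlap is not given for fits with arrays left out. These counts, and the 12 above, therefore cannot be judged against it. With 1 array left out the median difference ran from 0.014 to 0.14 and the members higher from 23 to 35. Among named members, Ndufv1 turned sign with renewed quantile normalization (-0.055) and with centring on the brighter probe sets (-0.030), Ndufaf8 with renewed quantile normalization (-0.0032) and Ndufs3 without the 2 arrays of lowest weight (0.026). With single arrays left out, Ndufv1 ran from -0.054 to 0.090, Ndufs3 from -0.098 to 0.050, Ndufaf8 from -0.10 to 0.30 and Ndufb3 from -0.036 to 0.32. The cause was not tested. The adjusted p of named members was 0.512 or higher under all settings. Adding the probe sets of several symbols was chosen after the data were seen.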
